A study of Mus musculus with 12 samples.

Results

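A set of 46 genes of the liver vasculature were followed across livers of mice with and without the carcinogen diethylnitrosamine (DEN) and with and without a knockout label for Otud3, a deubiquitinase gene. The members were taken by gene symbol from the deposited tables, and all 46 of the 46 named genes were found, among 14944 genes listed in any table and 12909 tested. They comprise 16 genes of sinusoidal endothelium, 3 central-vein signal genes, 5 genes of capillary and larger-vessel endothelium, and 22 genes that endothelial cells of most vessels use. The choice of genes used no measured value, but the genes were proposed with earlier results of these data known.

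The libraries are bulk RNA-seq of whole liver from male Otud3 knockout mice and wild-type (WT) littermates on a C57BL/6 background, 3 libraries in each of 4 groups. No DEN WT and No DEN labelled knockout are the untreated groups. DEN WT and DEN labelled knockout received 1 intraperitoneal injection of DEN at 25 mg/kg when 15 days old, a protocol used to induce hepatocellular carcinoma, and were killed 30 weeks after it. For the untreated groups the labels give neither an age at collection nor a sham injection, so an effect of DEN and one of age or injection cannot be told apart. The labels also do not give the deleted part of Otud3, whether the liver pieces held tumour, or whether each library is a separate mouse, so p-values measure the spread between these libraries.

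Liver sinusoids are lined by a specialised endothelium with open pores and no continuous basement membrane, which filters plasma and clears waste molecules through scavenger receptors such as Stab1, Stab2, Mrc1 and Fcgr2b. In injured liver this endothelium can lose its pores and gain genes of ordinary capillaries such as Cd34, a change called capillarization. Endothelial cells around the central vein secrete Wnt2, Wnt9b and Rspo3, which maintain the pericentral programme of neighbouring hepatocytes, including glutamine synthetase (Glul) and Cyp2e1. Vascular endothelial growth factor acts through the receptors Kdr, Flt1 and Flt4, and angiopoietins act through Tek.

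Total counts ranged from 29668861 to 31111765 per library. Otud3 itself had 367, 390 and 350 counts in No DEN WT, 409, 301 and 201 in No DEN labelled knockout, 560, 431 and 488 in DEN WT, and 290, 406 and 407 in DEN labelled knockout. Its groups overlapped in counts without DEN and did not overlap with DEN, and the knockout label did not pass the test in either stratum (edgeR adjusted p = 1 and 0.581), so counts over the whole gene leave the genotype unchecked. Summed hepatocyte markers (17 of 18 genes measured) were at 105500 to 175000 CPM (scaled counts, as a share of the library) in the 12 libraries, which fits the labelled tissue. A pair of libraries stands apart, the first across all genes and the second more often in the members. DEN WT replicate 2 lay outside the range of the other 5 DEN libraries in 36 of the 46 members, above all of them in 18 and below all of them in 18, 39.1% each, near the 36.5% above and 36.6% below for all genes tested. No DEN labelled knockout replicate 1 was the lowest of the 6 untreated libraries in 34 of 46 members (73.9%, against 28.0% of all genes). Results are therefore also given without them, a choice that for both together was made after seeing the data.

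The promoters of the 4 members with the smallest p for DEN that have an entry in the RefSeq promoter table (build GRCm38.p6) are shown because these genes carry the clearest difference with DEN. Each is 300 bases long, from 250 before to 50 after the start of transcription in that table, written 5′ to 3′ on the gene's strand. The windows are chr9:118711442-118711741 (plus strand) for Itga9, chr6:55336049-55336348 (plus strand) for Aqp1, chr5:75978406-75978705 (minus strand) for Kdr and chr12:58269209-58269508 (minus strand) for Clec14a. The windows of Itga9 and Kdr lie inside the annotated gene spans, chr9:118606709-118901003 and chr5:75932827-75979072, so they belong to an inner start. Capitals mark the letters AGGAAG, a core motif of the ETS transcription factors, a family that includes the members Ets1 and Erg.
Itga9: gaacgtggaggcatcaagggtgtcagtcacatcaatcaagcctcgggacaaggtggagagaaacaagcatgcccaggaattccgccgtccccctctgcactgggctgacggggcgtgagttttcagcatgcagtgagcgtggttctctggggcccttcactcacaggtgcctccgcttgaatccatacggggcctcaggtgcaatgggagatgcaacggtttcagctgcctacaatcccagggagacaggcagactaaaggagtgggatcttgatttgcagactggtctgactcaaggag
Aqp1: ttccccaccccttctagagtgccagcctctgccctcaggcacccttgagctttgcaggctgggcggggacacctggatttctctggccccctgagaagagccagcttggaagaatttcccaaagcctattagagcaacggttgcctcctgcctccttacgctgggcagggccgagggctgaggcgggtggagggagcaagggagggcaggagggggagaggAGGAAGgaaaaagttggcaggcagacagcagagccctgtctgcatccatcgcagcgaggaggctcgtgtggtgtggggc
Kdr: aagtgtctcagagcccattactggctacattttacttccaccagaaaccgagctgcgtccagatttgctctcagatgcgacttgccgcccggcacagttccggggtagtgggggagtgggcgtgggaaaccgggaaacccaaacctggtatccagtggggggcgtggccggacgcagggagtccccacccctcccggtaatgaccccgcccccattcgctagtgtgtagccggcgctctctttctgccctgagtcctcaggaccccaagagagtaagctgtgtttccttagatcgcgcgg
Clec14a: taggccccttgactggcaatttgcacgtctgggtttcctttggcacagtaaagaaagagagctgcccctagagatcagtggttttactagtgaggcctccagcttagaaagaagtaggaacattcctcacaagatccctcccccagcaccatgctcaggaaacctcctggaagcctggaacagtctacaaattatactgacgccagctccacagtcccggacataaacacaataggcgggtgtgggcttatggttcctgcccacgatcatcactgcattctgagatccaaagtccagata

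The Aqp1 window holds 1 match to AGGAAG and the other 3 windows hold none on either strand. Of the 46 members, 29 have a promoter in the table, and 17 of these (58.6%) hold AGGAAG on at least 1 strand, against 35.1% of all 27025 promoters. The other motifs searched on both strands were AGATAA for GATA factors, in 2 of 29 member promoters (6.90%) against 11.4% of all; AACAAT for SOX factors, in 3 (10.3%) against 10.9%; and GTAAACA for forkhead factors, in 1 (3.45%) against 3.55%. A match is a run of letters and not a measured binding site.

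With DEN, most endothelial genes were higher in both genotypes. Averaged over genotypes, 35 of 46 members rose and 0 fell (edgeR, adjusted p at most 0.05), where 8.4% of all genes tested rose and 8.1% fell. The median log2 fold change was 1.04 over the members and 0.00575 over all genes, and 44 of 46 members had a positive value. In 24 members all 6 DEN libraries lay above all 6 untreated ones, against 5.04% of all genes. By group of genes, 14 of 16 sinusoidal, 18 of 22 general, 3 of 5 capillary and vessel genes and 0 of 3 central-vein genes rose. In bulk tissue more endothelial cells and more RNA per endothelial cell cannot be told apart. Leaving out DEN WT replicate 2 gave 38 members, where 10.9% of all genes rose. Leaving out No DEN labelled knockout replicate 1 gave 35, where 8.18% rose. Of the 35 members, 23 passed in all 22 alternatives. The others lost their call in 1 to 11 of them, most often Ehd3 (11), Bmp2 (7), Stab1 (6), Esam (4) and Sox18 (4).

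**Figure D1:**
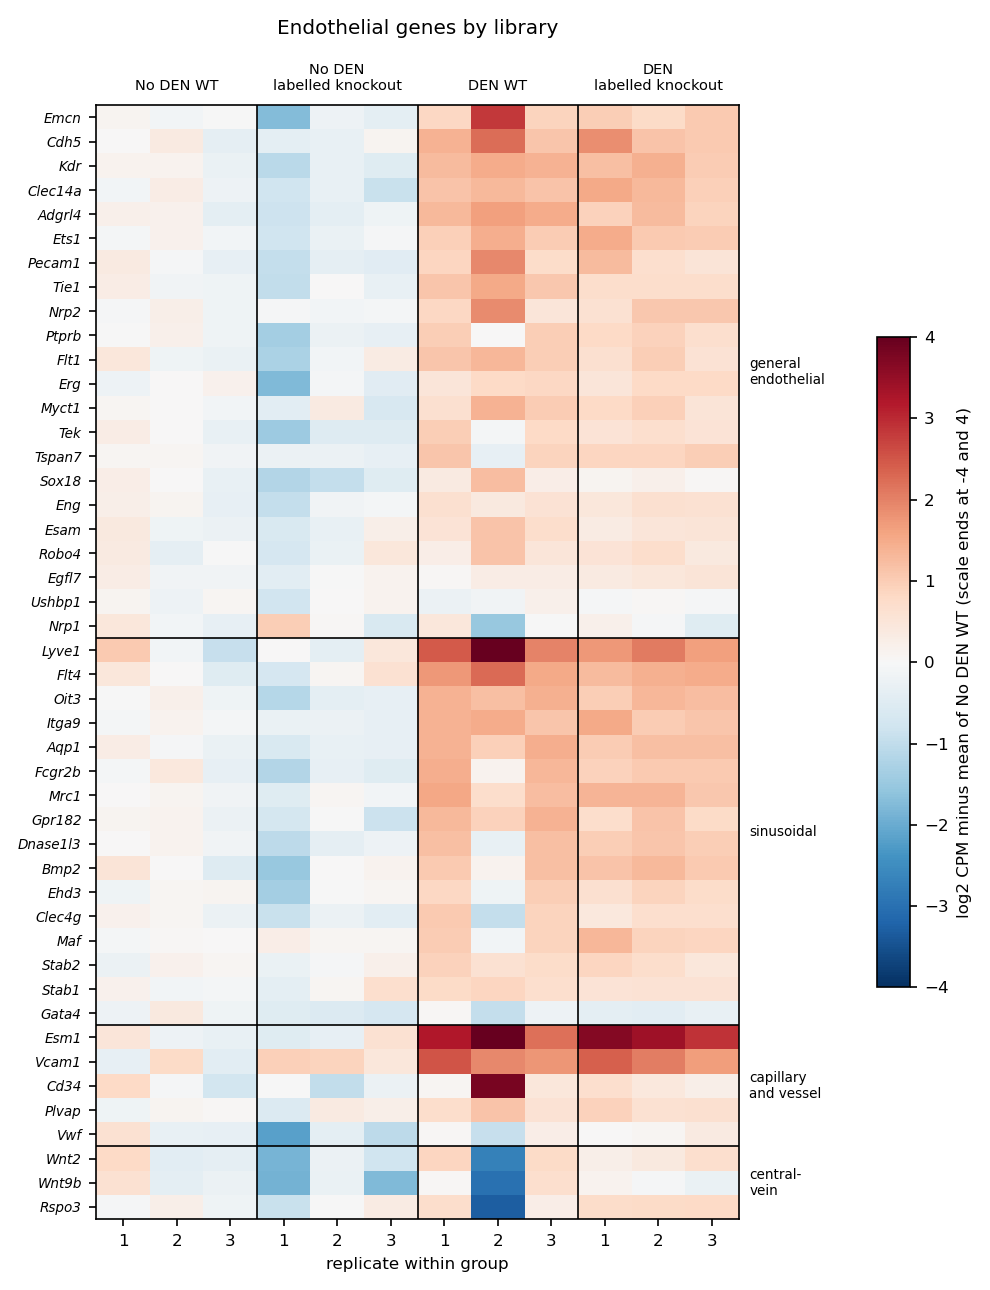
Log2 CPM of each of the 46 members (rows, grouped by kind) in each of the 12 libraries (columns), minus the gene's mean in No DEN WT; red is higher and blue lower, and colours stop at -4 and 4. Most rows are red in the 6 DEN libraries, and DEN WT replicate 2 differs in the central-vein rows and in Esm1, Cd34 and Lyve1.

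Summed over all members, the deposited TPM (a length-scaled share of transcripts) was 205 ± 31.6 (SD, n = 3) in No DEN WT, 155 ± 33.4 in No DEN labelled knockout, 487 ± 77.6 in DEN WT and 417 ± 7.77 in DEN labelled knockout. Sinusoidal genes made up the largest sum in every group: 105 ± 18.7, 73.6 ± 18.9, 252 ± 17.8 and 229 ± 9.59 TPM in the same order. The central-vein sum was 2.60 ± 0.613, 1.73 ± 0.766, 3.10 ± 2.37 and 4.53 ± 0.259 TPM, with a lowest DEN WT library of 0.37. TPM is not scaled for library composition, and CPM sums after TMM scaling (a correction for library composition) gave smaller differences. For the sinusoidal sum the log2 ratio of DEN over No DEN was 1.27 in TPM and 0.958 in CPM in WT, and 1.63 and 1.14 in labelled knockout.

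By mean TPM in No DEN WT the most abundant members were Clec4g (23.9), a sinusoidal C-type lectin, Plvap (16.7), the protein of endothelial diaphragms, Aqp1 (16.0), a water channel, Eng (14.3), a co-receptor for TGF-beta family ligands, and Fcgr2b (12.4), an inhibitory Fc receptor. At the low end were Cd34 (0.413), Wnt9b (0.277) and Esm1 (0.15 TPM). Neighbours in this order often overlapped between libraries, and the order changed with DEN: in DEN labelled knockout Clec4g (43.4) and Aqp1 (42.3) were nearest the top, Plvap followed at 33.4, and Esm1 stood at 2.23. In DEN WT Esm1 had a mean of 17.4 TPM, which 1 library carried.

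The vascular endothelial growth factor receptors rose. Kdr, the main signalling receptor of the family, was at 14.4, 14.2 and 10.8 CPM in No DEN WT, 6.14, 10.5 and 9.23 in No DEN labelled knockout, 31.7, 36.9 and 34.1 in DEN WT and 30.0, 35.4 and 26.2 in DEN labelled knockout. The 6 DEN libraries all lay above the 6 untreated ones, and DEN WT replicate 2 was the highest by a small margin. The averaged log2 fold change was 1.60 ± 0.142 (SE; edgeR adjusted p = 0.000761). Flt4, the receptor for VEGF-C and VEGF-D, counted here with the sinusoidal genes, rose by 1.57 ± 0.229 and Flt1, a high-affinity receptor that also acts as a decoy, by 1.04 ± 0.245 (edgeR adjusted p = 0.00597 and 0.0213). Of the neuropilin co-receptors, Nrp2 rose by 1.11 ± 0.22 (edgeR adjusted p = 0.0123). Nrp1 was at -0.29 ± 0.346 (adjusted p = 0.579), and its DEN and untreated libraries overlapped, from 18.9 CPM in DEN WT replicate 2 to 108 CPM in No DEN labelled knockout replicate 1.

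Other general endothelial genes moved the same way. Clec14a, an adhesion-related lectin of vessels, was at 3.33, 4.48 and 3.17 CPM in No DEN WT, 2.07, 2.92 and 1.91 in No DEN labelled knockout, 8.14, 8.98 and 8.01 in DEN WT and 10.4, 9.05 and 7.03 in DEN labelled knockout. Adgrl4, an adhesion G protein-coupled receptor, was at 4.04, 3.97 and 2.69 CPM in No DEN WT, 1.96, 2.64 and 3.09 in No DEN labelled knockout, 8.76, 11.1 and 9.96 in DEN WT and 6.76, 8.502 and 6.57 in DEN labelled knockout. DEN and untreated libraries did not overlap in either gene, and the log2 fold changes were 1.56 ± 0.156 and 1.49 ± 0.158 (edgeR adjusted p = 0.00122 and 0.00159). Ets1, an ETS transcription factor that lymphocytes also use, was at 7.78, 9.21 and 7.52 CPM in No DEN WT, 4.65, 6.75 and 7.83 in No DEN labelled knockout, 15.9, 22.3 and 16.3 in DEN WT and 23.1, 16.8 and 16.6 in DEN labelled knockout. All DEN libraries again lay above all untreated ones (1.35 ± 0.155, edgeR adjusted p = 0.00229). Tie1, an orphan receptor that modulates Tek, was at 9.22, 6.79 and 6.67 CPM in No DEN WT, 3.72, 7.58 and 6.07 in No DEN labelled knockout, 16.2, 21.4 and 16.0 in DEN WT and 12.2, 12.3 and 12.2 in DEN labelled knockout. It rose by 1.16 ± 0.168 (edgeR adjusted p = 0.00597), and its DEN WT libraries all lay above its DEN labelled knockout ones.

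The remaining general genes that rose were the junction genes Cdh5 (VE-cadherin, 1.62 ± 0.233), Pecam1 (1.35 ± 0.242) and Esam (0.71 ± 0.176), the sialomucin Emcn (1.78 ± 0.399), and the transcription factors Erg (1.02 ± 0.244) and Sox18 (0.83 ± 0.21). Tek, its phosphatase Ptprb, Eng, Tspan7 and Myct1 rose by 0.72 to 1.04 on the log2 scale. Robo4 (0.64 ± 0.219), a guidance receptor, and Egfl7 (0.37 ± 0.122), a secreted vessel factor, did not pass (edgeR adjusted p = 0.0663 and 0.0618). Ushbp1 was at 0.04 ± 0.155 (adjusted p = 0.865). Of the 22 general genes, 13 had DEN libraries that all lay above the untreated ones, against 5.04% of all genes.

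**Figure D2:**
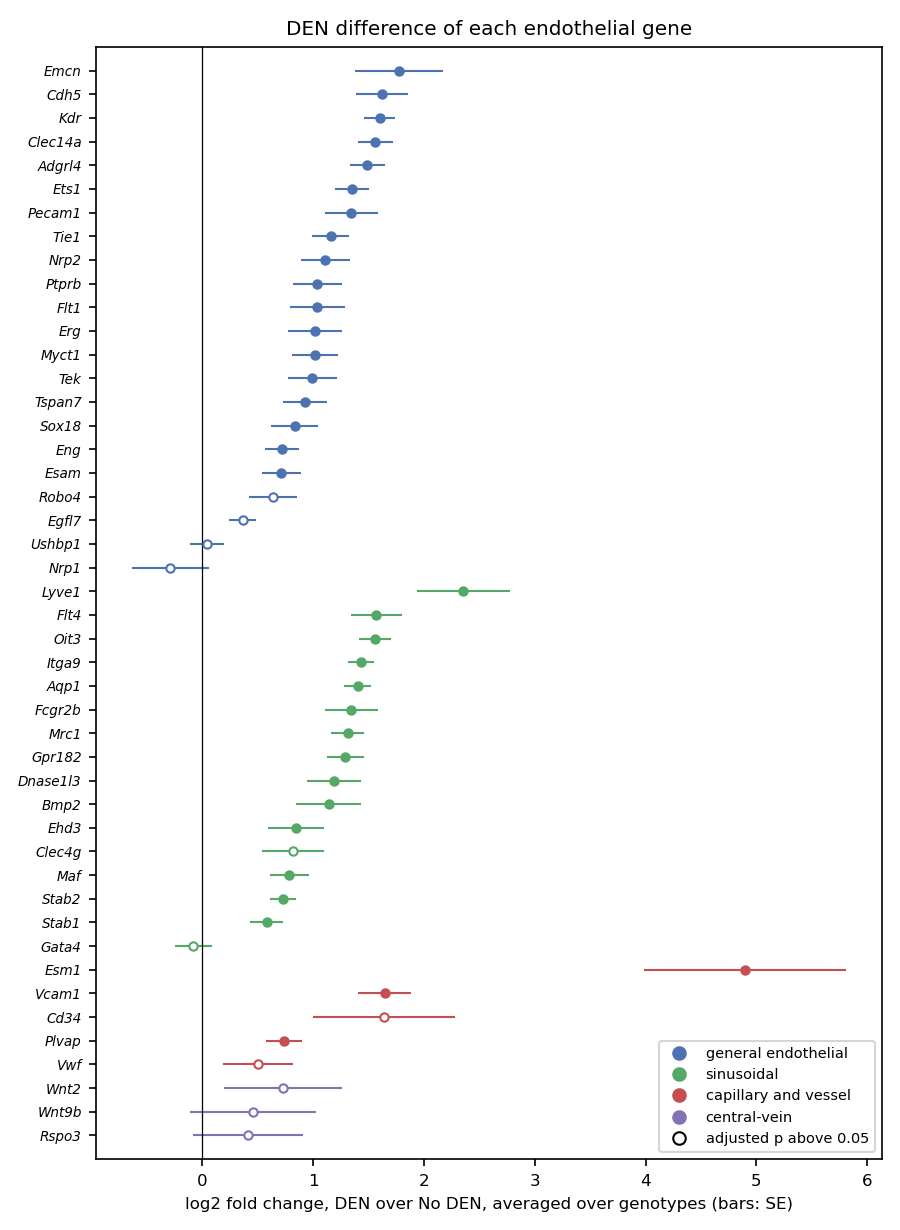
Log2 fold change for DEN averaged over genotypes of each member, with its standard error (bars); colour gives the kind of gene, and open points did not pass adjusted p at most 0.05. Passing members run from Stab1 at 0.58 to Esm1 at 4.90, and the 3 central-vein genes and Gata4, Nrp1 and Ushbp1 are among those that did not pass.

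Sinusoidal genes rose across their functions. Itga9, an integrin subunit of sinusoidal and lymphatic endothelium, was at 4.85, 5.67 and 4.79 CPM in No DEN WT, 4.18, 4.33 and 4.01 in No DEN labelled knockout, 13.5, 14.4 and 11.1 in DEN WT and 14.5, 10.3 and 11.02 in DEN labelled knockout. Aqp1 was at 44.2, 35.4 and 30.3 CPM in No DEN WT, 23.8, 29.5 and 28.8 in No DEN labelled knockout, 94.8, 69.7 and 98.7 in DEN WT and 72.8, 82.7 and 84.0 in DEN labelled knockout. In both genes every DEN library lay above every untreated one, and the log2 fold changes were 1.43 ± 0.118 and 1.4 ± 0.124 (edgeR adjusted p = 0.000761 for both). Oit3, a secreted sinusoidal protein, was at 10.04, 11.6 and 8.88 CPM in No DEN WT, 4.53, 7.62 and 8.05 in No DEN labelled knockout, 26.7, 23.1 and 27.3 in DEN WT and 19.99, 25.4 and 24.1 in DEN labelled knockout. It rose by 1.56 ± 0.146 without overlap (edgeR adjusted p = 0.000918).

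Among scavenger receptors, Mrc1, the mannose receptor, which macrophages also carry, was at 11.3, 11.99 and 10.1 CPM in No DEN WT, 7.95, 11.6 and 10.4 in No DEN labelled knockout, 32.8, 18.2 and 26.0 in DEN WT and 28.3, 28.4 and 23.5 in DEN labelled knockout. Stab2, a hyaluronan-clearing receptor, was at 18.9, 25.1 and 23.6 CPM in No DEN WT, 18.4, 21.5 and 25.9 in No DEN labelled knockout, 42.4, 34.02 and 37.6 in DEN WT and 40.3, 36.4 and 30.7 in DEN labelled knockout. The groups did not overlap by treatment in either gene. Mrc1 rose by 1.31 ± 0.149 and Stab2 by 0.73 ± 0.116 (edgeR adjusted p = 0.00223 and 0.0072). Stab1 rose by 0.58 ± 0.15 and Fcgr2b by 1.35 ± 0.237 (edgeR adjusted p = 0.0285 and 0.0088), each with overlapping libraries. Lyve1, a hyaluronan receptor of sinusoidal and lymphatic endothelium, was at 4.11, 1.80 and 0.995 CPM in No DEN WT, 1.96, 1.48 and 2.69 in No DEN labelled knockout, 10.9, 32.9 and 7.88 in DEN WT and 6.73, 8.44 and 6.30 in DEN labelled knockout. DEN WT replicate 2 was the highest by far. Lyve1 rose by 2.36 ± 0.42 (edgeR adjusted p = 0.00918), and by 1.92 ± 0.308 without that library (adjusted p = 0.00408).

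Clec4g was at 23.6, 22.0 and 17.7 CPM in No DEN WT, 11.3, 17.6 and 15.5 in No DEN labelled knockout, 42.9, 10.8 and 39.1 in DEN WT and 27.9, 33.2 and 33.6 in DEN labelled knockout. DEN WT replicate 2 was the lowest of all 12 libraries, and the other 5 DEN libraries lay above all untreated ones. The log2 fold change was 0.82 ± 0.28 (edgeR adjusted p = 0.0664) with that library and 1.03 ± 0.124 (adjusted p = 0.00124) without it. Gpr182, a chemokine-scavenging receptor, rose by 1.29 ± 0.167, Dnase1l3, a secreted nuclease, by 1.19 ± 0.244, the angiocrine factor Bmp2 by 1.14 ± 0.295, the endocytosis gene Ehd3 by 0.85 ± 0.25 and the transcription factor Maf by 0.79 ± 0.179. Gata4, a transcription factor of sinusoidal identity in mouse, was at -0.08 ± 0.167 (edgeR adjusted p = 0.762). Of the 16 sinusoidal genes, 8 had DEN libraries that all lay above the untreated ones, against 5.04% of all genes.

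**Figure D3:**
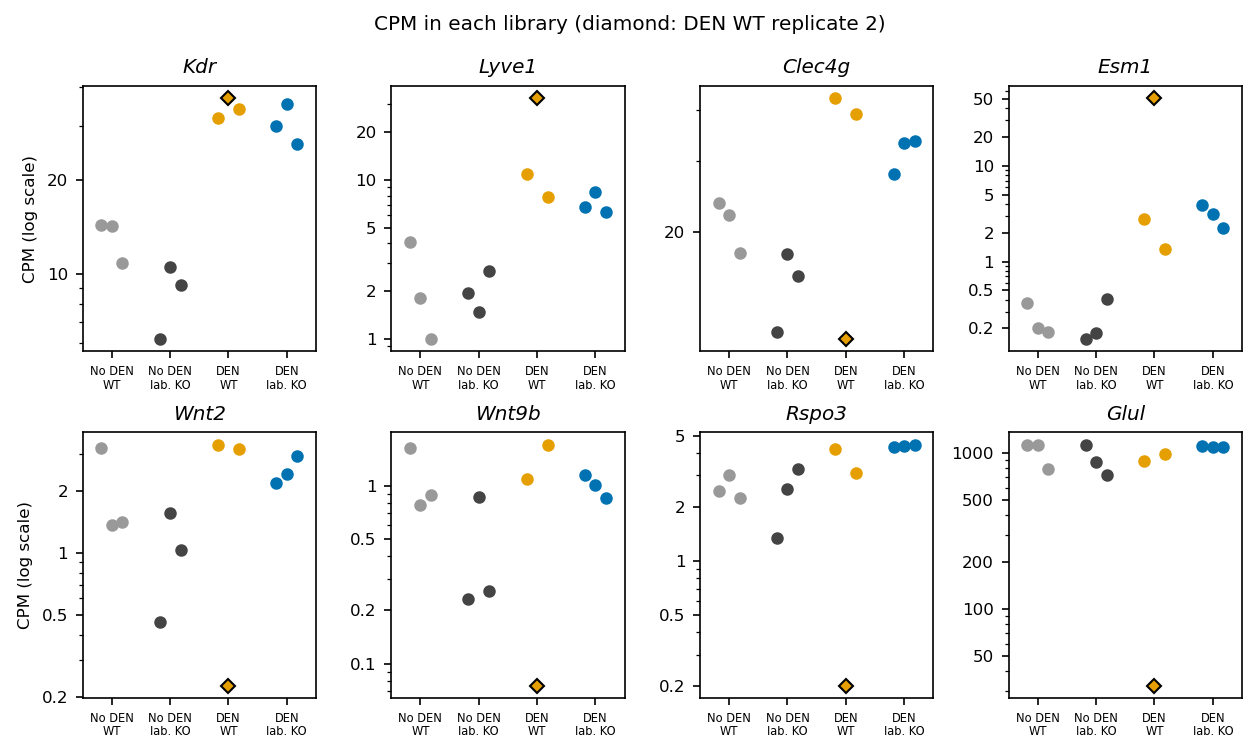
CPM in each library on a log axis for 7 members and for Glul, a hepatocyte gene of the pericentral zone; each point is 1 library, columns are the 4 groups ("lab. KO" stands for labelled knockout), and the diamond is DEN WT replicate 2. The diamond lies above the other DEN libraries in Lyve1 and Esm1 and below all 11 other libraries in Clec4g, Wnt2, Wnt9b, Rspo3 and Glul.

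Genes of capillary and larger-vessel endothelium differed from one another. Plvap was at 23.7, 28.7 and 27.7 CPM in No DEN WT, 18.3, 34.4 and 31.1 in No DEN labelled knockout, 43.4, 58.5 and 39.7 in DEN WT and 50.1, 40.6 and 41.7 in DEN labelled knockout. Vcam1, a leukocyte adhesion molecule that macrophages also make, was at 3.07, 6.59 and 2.84 CPM in No DEN WT, 7.60, 7.26 and 5.37 in No DEN labelled knockout, 22.4, 14.9 and 13.4 in DEN WT and 20.3, 16.3 and 12.4 in DEN labelled knockout. The treatments did not overlap in either gene, and the log2 fold changes were 0.74 ± 0.159 and 1.65 ± 0.239 (edgeR adjusted p = 0.0164 and 0.00597). Esm1, a secreted proteoglycan of endothelial tip cells, was at 0.370, 0.204 and 0.184 CPM in No DEN WT, 0.154, 0.180 and 0.405 in No DEN labelled knockout, 2.79, 51.1 and 1.35 in DEN WT and 3.88, 3.14 and 2.24 in DEN labelled knockout. The untreated values rest on 4 to 11 counts per library. Every DEN library lay above every untreated one, and Esm1 rose by 4.90 ± 0.914 (edgeR adjusted p = 0.0104), or by 3.32 ± 0.33 without DEN WT replicate 2 (adjusted p = 0.00066). With limma-voom it did not pass (4.15 ± 1.57, adjusted p = 0.0956).

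Cd34 and Vwf did not pass. Cd34, the capillary sialomucin, was at 1.41, 0.747 and 0.442 CPM in No DEN WT, 0.768, 0.361 and 0.662 in No DEN labelled knockout, 0.820, 11.8 and 1.09 in DEN WT and 1.29, 1.07 and 0.939 in DEN labelled knockout. Only DEN WT replicate 2 stood above all other libraries, and the log2 fold change moved from 1.64 ± 0.64 (edgeR adjusted p = 0.0954) to 0.52 ± 0.313 (adjusted p = 0.248) without it. Within labelled knockout the Cd34 DEN libraries all lay above the untreated ones, as in 14.8% of all genes (0.88 ± 0.918, edgeR adjusted p = 0.651). Vwf, von Willebrand factor, was at 7.07, 3.74 and 3.61 CPM in No DEN WT, 0.960, 3.502 and 2.17 in No DEN labelled knockout, 4.72, 2.38 and 5.48 in DEN WT and 4.64, 4.78 and 5.93 in DEN labelled knockout. The 6 DEN libraries overlapped the 6 untreated ones (0.50 ± 0.318, edgeR adjusted p = 0.275), though within labelled knockout the DEN libraries all lay above the untreated ones.

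None of the central-vein signal genes passed with all libraries, and 1 library decided that call for a pair of them. Wnt2, a Wnt ligand (chr6:17985474-18032772), was at 3.22, 1.36 and 1.401 CPM in No DEN WT, 0.461, 1.55 and 1.03 in No DEN labelled knockout, 3.35, 0.226 and 3.17 in DEN WT and 2.17, 2.41 and 2.94 in DEN labelled knockout. Wnt9b, the other Wnt ligand (chr11:103727362-103775272), was at 1.63, 0.781 and 0.885 CPM in No DEN WT, 0.230, 0.866 and 0.258 in No DEN labelled knockout, 1.08, 0.0752 and 1.70 in DEN WT and 1.15, 1.01 and 0.848 in DEN labelled knockout. Rspo3, an R-spondin that strengthens Wnt signalling (chr10:29453106-29535867), was at 2.44, 3.02 and 2.25 CPM in No DEN WT, 1.34, 2.53 and 3.24 in No DEN labelled knockout, 4.20, 0.201 and 3.11 in DEN WT and 4.29, 4.36 and 4.45 in DEN labelled knockout. DEN WT replicate 2 was the lowest of all 12 libraries in each, with 9, 3 and 8 counts, where the other 5 DEN libraries had 74 to 102, 28 to 53 and 97 to 147. With all libraries the averaged log2 fold changes were 0.73 ± 0.533, 0.46 ± 0.567 and 0.42 ± 0.497 (edgeR adjusted p = 0.345, 0.586 and 0.573). Without DEN WT replicate 2, Wnt2 (1.01 ± 0.311, adjusted p = 0.0406) and Rspo3 (0.70 ± 0.208, adjusted p = 0.0363) passed and Wnt9b (0.74 ± 0.356, adjusted p = 0.149) did not.

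Listed hepatocyte targets of this signal were also low in the same library. Any link to the levels of the central-vein genes was not tested. Summed over 15 of 16 listed targets measured, DEN WT replicate 2 had 263.9 CPM and the other 5 DEN libraries had 11270 to 13190, beside 11530 to 14850 in the untreated ones. Glul had 32.3 CPM in it and 894 to 1111 in the other DEN libraries, Cyp2e1 had 69.1 and 7032 to 8241, and the Wnt feedback gene Axin2 had 0.326 and 3.48 to 7.30. Over all DEN libraries 0 of the 15 targets passed (edgeR; median log2 fold change -0.41), and 3 (Lect2, Oat and Lgr4, named after their values were seen) fell when DEN WT replicate 2 was left out. With all libraries 2 of the 15 had an unadjusted p of at most 0.05, against 4628 of the 12909 genes tested. Of all genes 8.1% fell with all libraries, and 1635 of 12962 fell without DEN WT replicate 2.

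**Figure D4:**
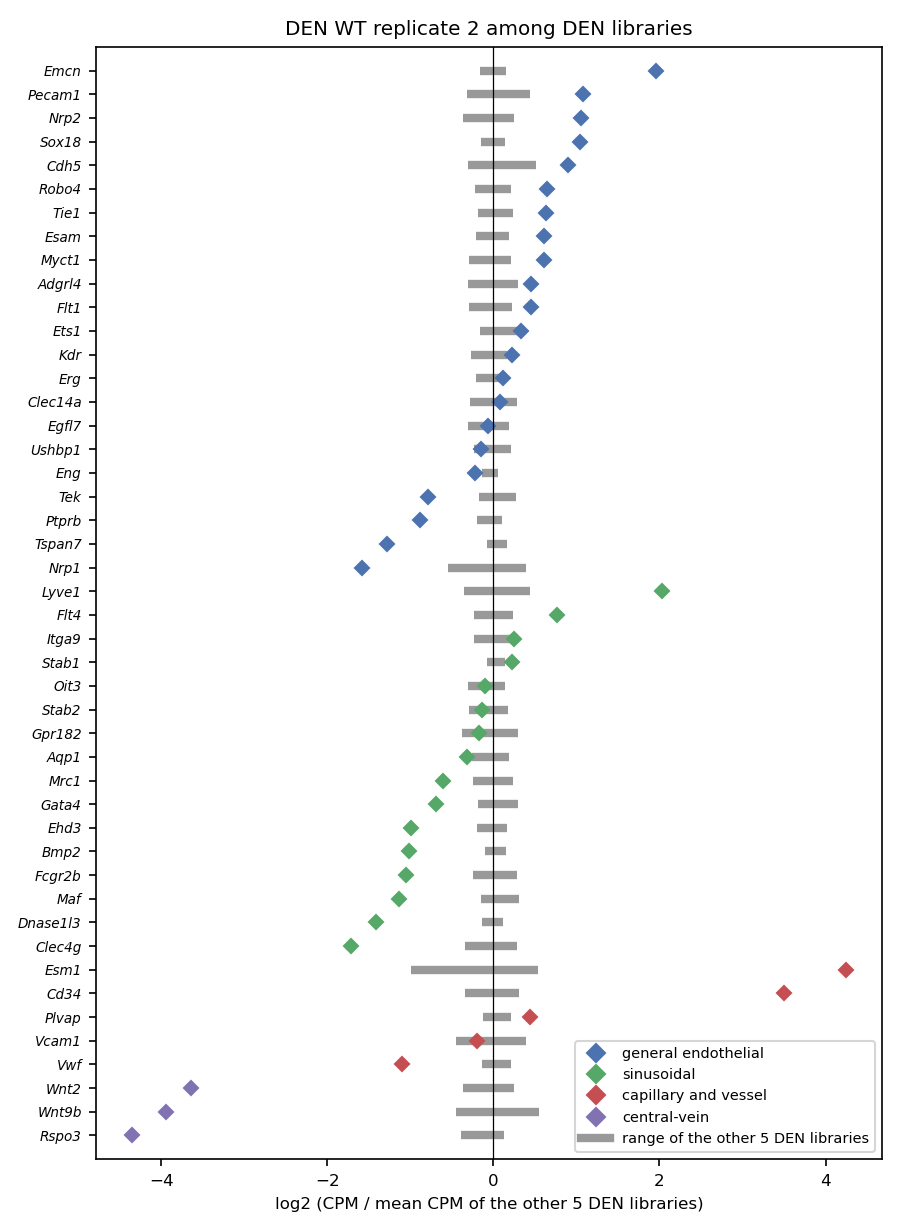
CPM in DEN WT replicate 2 over the mean of the other 5 DEN libraries for each member, on a log2 scale (diamonds, coloured by kind of gene), with the range of those 5 libraries as a grey bar. The values run from the 3 central-vein genes, lowest, to Cd34 and Esm1, highest.

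Among the other members, DEN WT replicate 2 lay below the other 5 DEN libraries in 9 of 16 sinusoidal genes and above them in 3. It lay above them in 12 of 22 general genes and below in 5. In the 5 capillary and vessel genes it lay above them in 3 and below in 1, Vwf. Over all genes tested the shares were 36.5% above and 36.6% below, and no test of a difference between the kinds of gene was run. Set against the mean of those 5, Esm1 was 19.1-fold, Cd34 11.3-fold, Lyve1 4.08-fold and Emcn 3.88-fold as high, and Pecam1 2.11-fold. Plvap was 1.36-fold as high. Dnase1l3 was at 0.375, Vwf at 0.466, Fcgr2b at 0.483 and Vcam1 at 0.876 of that mean. Angpt2, the tip-cell angiopoietin, which is no member, had 14.5 CPM in it and at most 1.28 in the other 11 libraries. With 1 library there is no test of these differences. The median coefficient of variation of the members in DEN WT was 32.5% with DEN WT replicate 2, beside 22.2% for all genes. Without it the median over members was 8.09%, from the remaining pair of libraries. No such median was taken over all genes, so whether the fall is particular to the members is not shown.

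Within each genotype fewer members passed. In WT, 16 of 46 rose with DEN and 0 fell (edgeR), where 1.39% of all genes rose and 1.36% fell, and 27 members had non-overlapping higher libraries against 18.4% of all genes. The 16 were Itga9, Aqp1, Kdr, Adgrl4, Oit3, Vcam1, Mrc1, Flt4, Clec14a, Ets1, Tie1, Gpr182, Cdh5, Lyve1, Esm1 and Stab2, with a median over all 46 of 0.835. In labelled knockout, 8 rose and 0 fell, where 0.147% of all genes rose and 0.0465% fell. These were Itga9, Kdr, Aqp1, Clec14a, Oit3, Ets1, Mrc1 and Adgrl4, all of which also passed in WT. The median over all 46 was 1.24, and in 41 members the DEN libraries all lay above the untreated ones, against 14.8% of all genes.

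Kdr rose by 1.38 ± 0.199 in WT and 1.82 ± 0.203 in labelled knockout, Oit3 by 1.34 ± 0.204 and 1.78 ± 0.208, Itga9 by 1.35 ± 0.165 and 1.52 ± 0.167, and Aqp1 by 1.26 ± 0.175 and 1.54 ± 0.177. These counts moved with single libraries. In WT, leaving out DEN WT replicate 2 gave 21 members (1.71% of all genes rose) and leaving out No DEN labelled knockout replicate 1 gave 19 (2.98%). The count was 0 when either No DEN WT replicate 3 or DEN WT replicate 1 was left out. It was 4 and 2 when replicates 1 and 2 of No DEN WT were left out in turn, and 5 and 6 for replicates 2 and 3 of DEN labelled knockout. In labelled knockout the count was 30 when DEN WT replicate 2 was left out, where 3.71% of all genes rose. It was 3 when No DEN labelled knockout replicate 1 was left out, where 0.0307% rose. Of the DEN labelled knockout libraries, leaving out replicate 2 gave 0 and leaving out replicate 1 or 3 gave 5, and leaving out No DEN WT replicate 1 also gave 5. A library outside the contrast counts here because 1 model estimates the spread from all groups. Over the libraries left out, all genes called in either direction numbered 0 to 1038 in WT and 0 to 912 in labelled knockout. Where no share of all genes stands beside a count, it does not show whether members lost calls more than other genes.

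**Figure D5:**
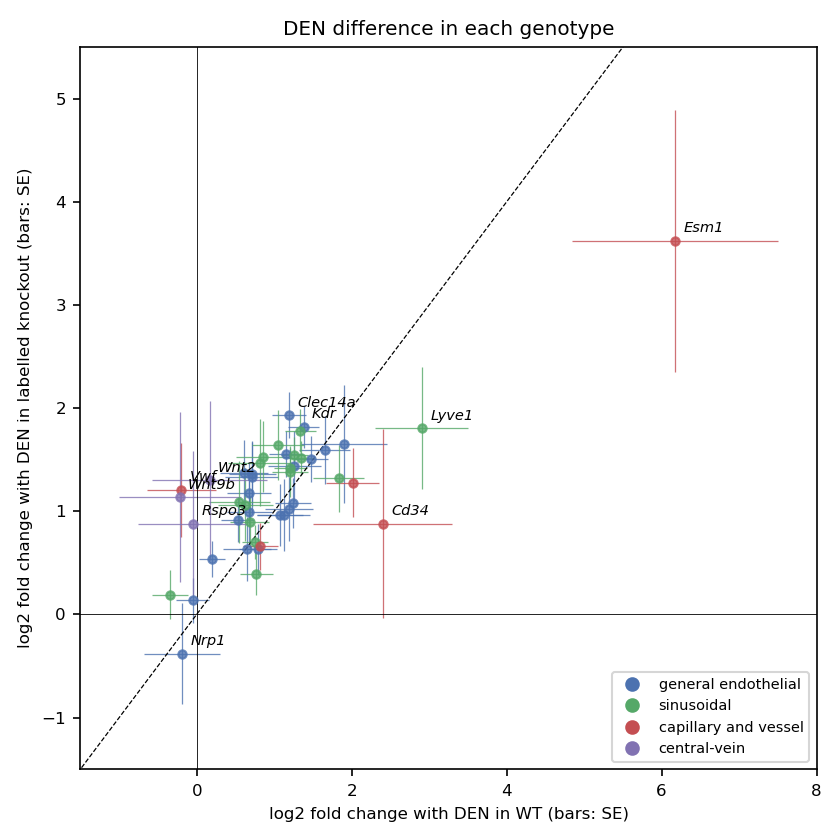
Log2 fold change for DEN in labelled knockout (y) against that in WT (x) for each member, coloured by kind, with standard errors as bars and the line of equal change. Most points lie above 0 on both axes, and Esm1 lies farthest right at 6.17 in WT against 3.62 in labelled knockout.

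The knockout label gave no member that passed. Without DEN, 0 of 46 members and 0.00% of all genes passed (edgeR, and 0 members by DESeq2 and limma-voom), and 8 members had an unadjusted p of at most 0.05, against 3.71% of all genes. In these 8, Kdr (-0.61 ± 0.2), Clec14a (-0.67 ± 0.223), Oit3 (-0.59 ± 0.205), Aqp1 (-0.42 ± 0.174), Tek (-0.81 ± 0.316), Sox18 (-0.88 ± 0.301), Vwf (-1.12 ± 0.458) and Gata4 (-0.60 ± 0.238), the labelled-knockout mean was lower, with edgeR adjusted p = 1 for each. The median over members was -0.35, against 0.00919 over all genes, 40 of 46 were negative, and in 15 the labelled-knockout libraries all lay below the WT ones, against 5.64% of all genes. In 1 member, Maf, they all lay above, against 4.76%. Without No DEN labelled knockout replicate 1, the median was -0.22 and 32 were negative. No DEN WT replicate 1 was the highest untreated library in 20 members (43.5%, against 13.5% of all genes).

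With DEN, 0 of 46 members and 0.00% of all genes passed for the knockout label (edgeR, and 0 members by DESeq2 and limma-voom), and 4 had an unadjusted p of at most 0.05, against 10.1% of all genes. Esm1 was at -2.58 ± 1.05 (edgeR adjusted p = 0.448), and at 0.59 ± 0.417 without DEN WT replicate 2. Tie1 was at -0.55 ± 0.233 (adjusted p = 0.47), and its labelled-knockout libraries all lay below the WT ones. The others were Lyve1 at -1.27 ± 0.559, or -0.38 ± 0.435 without DEN WT replicate 2, and Cd34 at -2.05 ± 0.877, or 0.21 ± 0.456 without it. With that library left out, 0 members had an unadjusted p of at most 0.05. The median over members was -0.08. In 6 members the labelled-knockout libraries all lay below the WT ones, against 11.4% of all genes, and in 2, Rspo3 and Egfl7, they all lay above, against 8.22%.

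The test of whether the DEN difference itself differs between genotypes gave 0 members and 0.00% of all genes (edgeR, and 0 members by DESeq2 and limma-voom). Clec14a (0.74 ± 0.308) and Vwf (1.41 ± 0.637) had an unadjusted p of at most 0.05, against 6.53% of all genes, with edgeR adjusted p = 0.735 for both. The counts of passing members in WT and in labelled knockout therefore do not show that the genotypes differ.

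Other vascular genes from lists of related genes gave a mixed picture. Of 34 further endothelial genes, 16 rose and 1 fell (median 0.755), where 8.4% of all genes rose and 8.1% fell. Their summed level overlapped between treatments, at 537 to 724 CPM in No DEN WT and 497 to 542 in No DEN labelled knockout. With DEN it was 527 to 546 CPM in WT and 506 to 550 in labelled knockout. Without No DEN labelled knockout replicate 1, 10 of the 34 genes rose and 0 fell, where 8.18% of all genes rose. The 3 with the smallest p were She (1.44 ± 0.171), Mmrn2 (1.89 ± 0.262) and Gpihbp1 (1.39 ± 0.202), the lipoprotein lipase anchor of capillaries. Of 11 measured vascular growth factor and angiopoietin pathway genes, 2 rose, Angptl2 (1.37 ± 0.188) and Angpt2 (3.21 ± 0.759, or 1.87 ± 0.306 without DEN WT replicate 2). Of 20 measured Notch and BMP pathway genes, 2 rose, where 8.4% of all genes rose: Bmp6 (1.21 ± 0.229), an iron-sensing ligand of sinusoidal cells, and Dll4 (1.47 ± 0.322), a Notch ligand. Without DEN WT replicate 2 Dll4 rose by 1.02 ± 0.159; in that library it had 15.1 CPM, against 2.70 to 4.58 in the other 5 DEN libraries.

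Markers of other cell types were measured in the same libraries. Of 18 measured Kupffer cell and macrophage markers (1 further marker is not in all 4 tables), 6 rose and 0 fell, and their summed level was 137 to 316 CPM in No DEN WT, 237 to 352 in No DEN labelled knockout, 214 to 581 in DEN WT and 412 to 1421 in DEN labelled knockout. Of 18 measured stellate and mural cell markers (again 1 is not in all 4 tables), 7 rose and 0 fell, with sums of 255 to 307, 139 to 325, 405 to 543 and 435 to 448 CPM in the same order. Of 17 hepatocyte markers 2 fell and 0 rose, where 8.1% of all genes fell. The median log2 fold change was 1.27 for the Kupffer cell and macrophage markers, all 18 positive, beside 1.04 for the members. It was 0.737 for the stellate and mural markers (15 positive) and -0.356 for the hepatocyte ones. For 5 B and plasma cell markers it was 1.6, with 0 passing, and for 9 T and NK cell markers 0.784. Cholangiocyte, neutrophil and erythroid markers had medians of -0.363, -0.29 and -0.651. Leaving out DEN WT replicate 2 gave 11 Kupffer cell and macrophage markers and 9 stellate and mural ones that rose. It also gave 6 hepatocyte markers that fell. Of all genes 8.4% rose with all libraries. Without DEN WT replicate 2, 10.9% of all genes rose and 1635 of 12962 fell. The part of these markers in the rise of the members was not tested.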

How the data were processed

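RNA-seq of liver was analysed in 12 libraries, 3 per group, with replicates taken from the labels. Per the file headers, the authors' 4 deposited tables, 1 per group, give a read count and a TPM per gene and library. The counts deposited by the authors are expected counts, estimated per gene, since 6.58% to 7.39% of values per library are not whole. The authors' deposited TPM values were used for summed levels and for comparing genes. The tools named in the submitters' processing notes are RSEM 1.3.1, DESeq2 1.4.5, HISAT2 2.2.1 and Bowtie2 2.3.4.3, and the build is GRCm38.p6. Neither their roles nor the strand setting is given. Without strand, reads of Stab1, Wnt9b, Plvap and Eng cannot be told apart from those of protein-coding genes that overlap them.

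The 13371 genes in all 4 tables, with at least 99.847% of each library's counts, were rounded to whole counts. After filterByExpr by group, 12909 remained. They were TMM-scaled and fitted with edgeR 4.0.16 (quasi-likelihood, robust, 1 coefficient per group, 8 residual degrees of freedom). P-values were adjusted over all genes tested (Benjamini-Hochberg, threshold 0.05). CPM uses TMM-scaled library sizes. Replicates of a group differed by more than counting noise (lowest chi-square ratio to its degrees of freedom 27.9), so none was treated as a repeat of another library, which does not show that they are separate mice. Steps were tested on simulated data. Alternatives were DESeq2 1.42.0, limma-voom (limma 3.58.1) with and without library quality weights, other scalings and filters, genes missing from a table set to 0, only the groups compared, a replicate block and leaving out each library. Values per library are given for a set of central genes, for the 4 members of each kind with the smallest p for DEN, and for the 2 with the smallest p in the other contrasts. The members, lists and rules were chosen with earlier results of these data known.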

Additional observations from a re-analysis of the deposited data

How the results depend on the processing

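No member fell with DEN under any of the alternatives run, and none passed for the knockout label or the interaction. Averaged over genotypes, 24 to 41 of 46 members rose over 22 alternatives (24 to 38 when each library was left out). All genes called in either direction ranged from 656 to 5470 (2131 in the main fit). Scaling by library size alone moved the median log2 fold change of all genes from 0.00575 to 0.278 and that of the members from 1.04 to 1.31, with 93.7% of all calls upward in place of 50.9%.

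Within WT the count of 16 became 25 with DESeq2, 34 with library quality weights, 27 with library size scaling, 0 with only the groups compared (0 of all genes then passed) and 31 when both libraries that stand apart (DEN WT 2, No DEN labelled knockout 1) were left out, an alternative chosen after seeing the data. It ranged from 0 to 21 when each library was left out. Over the 23 alternatives for WT, all genes called in either direction ranged from 0 to 4209 (354 in the main fit). The share of all genes that rose was 9.87% with library size scaling and 4.89% with both libraries left out, against 1.39%. Within labelled knockout the count of 8 became 29, 36 and 21 with DESeq2, quality weights and library size scaling, 27 with both libraries left out and 0 to 30 when each was left out. The replicate block, the replicate number as a covariate, gave 5. All genes called in labelled knockout, in either direction, ranged from 0 to 2263 over the alternatives (25 in the main fit). The share of all genes that rose was 2.5% with library size scaling and 2.93% with both libraries left out, against 0.147%. For DESeq2, quality weights and the replicate block no such share is set beside the counts in either genotype. Those counts therefore do not show a change particular to the members. Correlations between the deviations of same-numbered libraries were -0.19 to 0.22. Libraries with different numbers were not compared, so whether the numbers pair the samples was not tested. In CPM in place of TPM, the log2 ratios of DEN over No DEN were 0.958 (sinusoidal, WT), 1.14 (sinusoidal, labelled knockout), 0.797 (general, labelled knockout), 0.864 (all members, WT) and 0.969 (all members, labelled knockout).

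The averaged DEN difference changed sign in 4 members, and none of these passed in the main fit. There Gata4 (-0.08) and Ushbp1 (0.04) were near 0, while Rspo3 was at 0.42 and Nrp1 at -0.29. Rspo3 was at -0.0327 with limma-voom. Gata4 was at 0.0703 with quality weights, 0.17 with library size scaling and 0.0636 with both libraries left out, and Nrp1 at 0.0784 with quality weights and 0.179 with both left out. Ushbp1 was at -0.0444 with both left out. Leaving out each library in turn, Gata4 ranged from -0.189 to 0.0416 and Ushbp1 from -0.0748 to 0.128. Esm1 for the knockout label with DEN became 0.471 with quality weights and 0.589 with both left out, and ranged from -3.12 to 0.588 over the libraries left out. Except where a left-out library is named, the cause was not tested. Low counts limit Esm1 without DEN and the central-vein genes in DEN WT replicate 2.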
